A study of Mus musculus with 20 samples.

Results

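The Sox factors described here are 10 genes of the SRY-related HMG-box family measured in the mouse uterus: Sox4, Sox11 and Sox12 (subgroup SoxC), Sox5 and Sox6 (SoxD), Sox8 and Sox9 (SoxE), and Sox7, Sox17 and Sox18 (SoxF). They were found on the arrays by gene name, among 27962 distinct names on the array, and 28 of the 41174 probes carried 1 of these 10 names. For each gene the probe with the highest mean log2 intensity over the 20 arrays was used. All 10 of these probes were well above background on all 20 arrays. Of the 28 probes, 24 passed the filter on dim probes and were tested, and 16 were well above background on every array.

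Ovariectomized adult C57bl6/J females aged 10 or more weeks rested for 10 to 14 days and then received 1 subcutaneous injection. The vehicle group got 100 µl of sesame oil (3 arrays), and the treated groups got 250 ng estradiol (E2), 750 µg bisphenol A (BPA) or 750 µg HPTE, a metabolite of the pesticide methoxychlor, in oil. Uteri were taken 2 h or 24 h later, with 3 arrays in each treated group except E2 at 24 h, which had 2 (replicates 2 and 3). All vehicle arrays are labelled 24 h, so a difference between a 2 h group and vehicle holds the effect of the compound and of the time after injection, which cannot be told apart. The animals carried no transgene in the labels, and ovariectomy removed the main source of their own estrogen in every group, vehicle included.

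Sox proteins bind DNA through an HMG domain, which bends the helix, and they act with partner factors on genes of cell fate and growth. SoxF members are best known from endothelium, SoxE members from cartilage, neural crest and epithelial progenitors, SoxD members as partners of Sox9 in cartilage and of other factors in muscle, and SoxC members from progenitor cells of many tissues. In the uterus, Sox17 is known as an epithelial factor upstream of Indian hedgehog (Ihh), and Sox9 marks gland epithelium.

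Each value below is a scaled log2 level, that is the log2 of the processed intensity minus the 75th percentile of the same array. A difference is between group means on this log2 scale, and a fold is 2 to that power. A change was called when the adjusted p of limma (Benjamini-Hochberg over 32456 tested probes) was below 0.05. The level of a probe is compared between groups and never with that of another probe.

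The probes read 60 bases each. The first 30 bases of those on which the results turn are shown because several probes of a gene did not move alike. Positions are on mm7, the build in the file headers, and no exon or UTR annotation of that build was used here.

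Sox4, A_51_P105178, chr13:28317744-28317803: cctgccgacaagaaagtgaagcacgtctac

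Sox11, A_52_P608516 (brightest), chr12:25177775-25177834: atgctgaaggacagcgagaagatcccgttc

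Sox11, A_52_P160955, chr12:25170366-25170425: aaccattctgtattgaaactcttgctataa

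Sox9, A_52_P577484 (brightest), chr11:112894739-112894798: ttccaggagagagactttaagactttgtct

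Sox17, A_52_P279368 (brightest), chr1:4487014-4487073: ctcactgacttattccatttcttgaaagtg

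Sox17, A_52_P1180325, chr1:4494263-4494322: attgcatctgaaatcacaacattactgggt

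Arrays of a group correlated closely over all probes, but 2 arrays stood apart for these genes. BPA 2 h replicate 3 lay nearer to vehicle than replicates 1 and 2 for Sox4 and Sox11, and vehicle replicate 1 gave the highest value of several dim probes. Several results that rest on them are given with and without them. Genes listed as sperm cell markers were highest on the vehicle arrays: their summed level over 10 genes was 4.96 to 6.68 on vehicle arrays, against 2.62 to 3.66 for BPA at 2 h, 0.995 to 2.53 for HPTE at 2 h, -0.95 to 0.58 for E2 at 2 h, 1.64 to 2.46 for BPA at 24 h, 0.47 to 0.86 for HPTE at 24 h and -1.45 to -0.34 for E2 at 24 h. Between 9 and 10 of these markers were well above background on each vehicle array and 6 to 7 on each E2 24 h array. Pancreas markers were higher in E2 groups (6 of 6 tested at 2 h, with a summed level from -2.85 to 10.52 over its arrays, against -3.89 to -3.00 on vehicle arrays). Over all probes, 11.1% were higher with E2 at 2 h. Proliferation markers rose in 5 of 5 tested in each 24 h group and in 4 of 5 with BPA at 2 h. Of all probes, 26.3% (E2), 5.09% (BPA) and 14.9% (HPTE) were higher at 24 h, and 19.3% with BPA at 2 h.

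**Figure D1:**
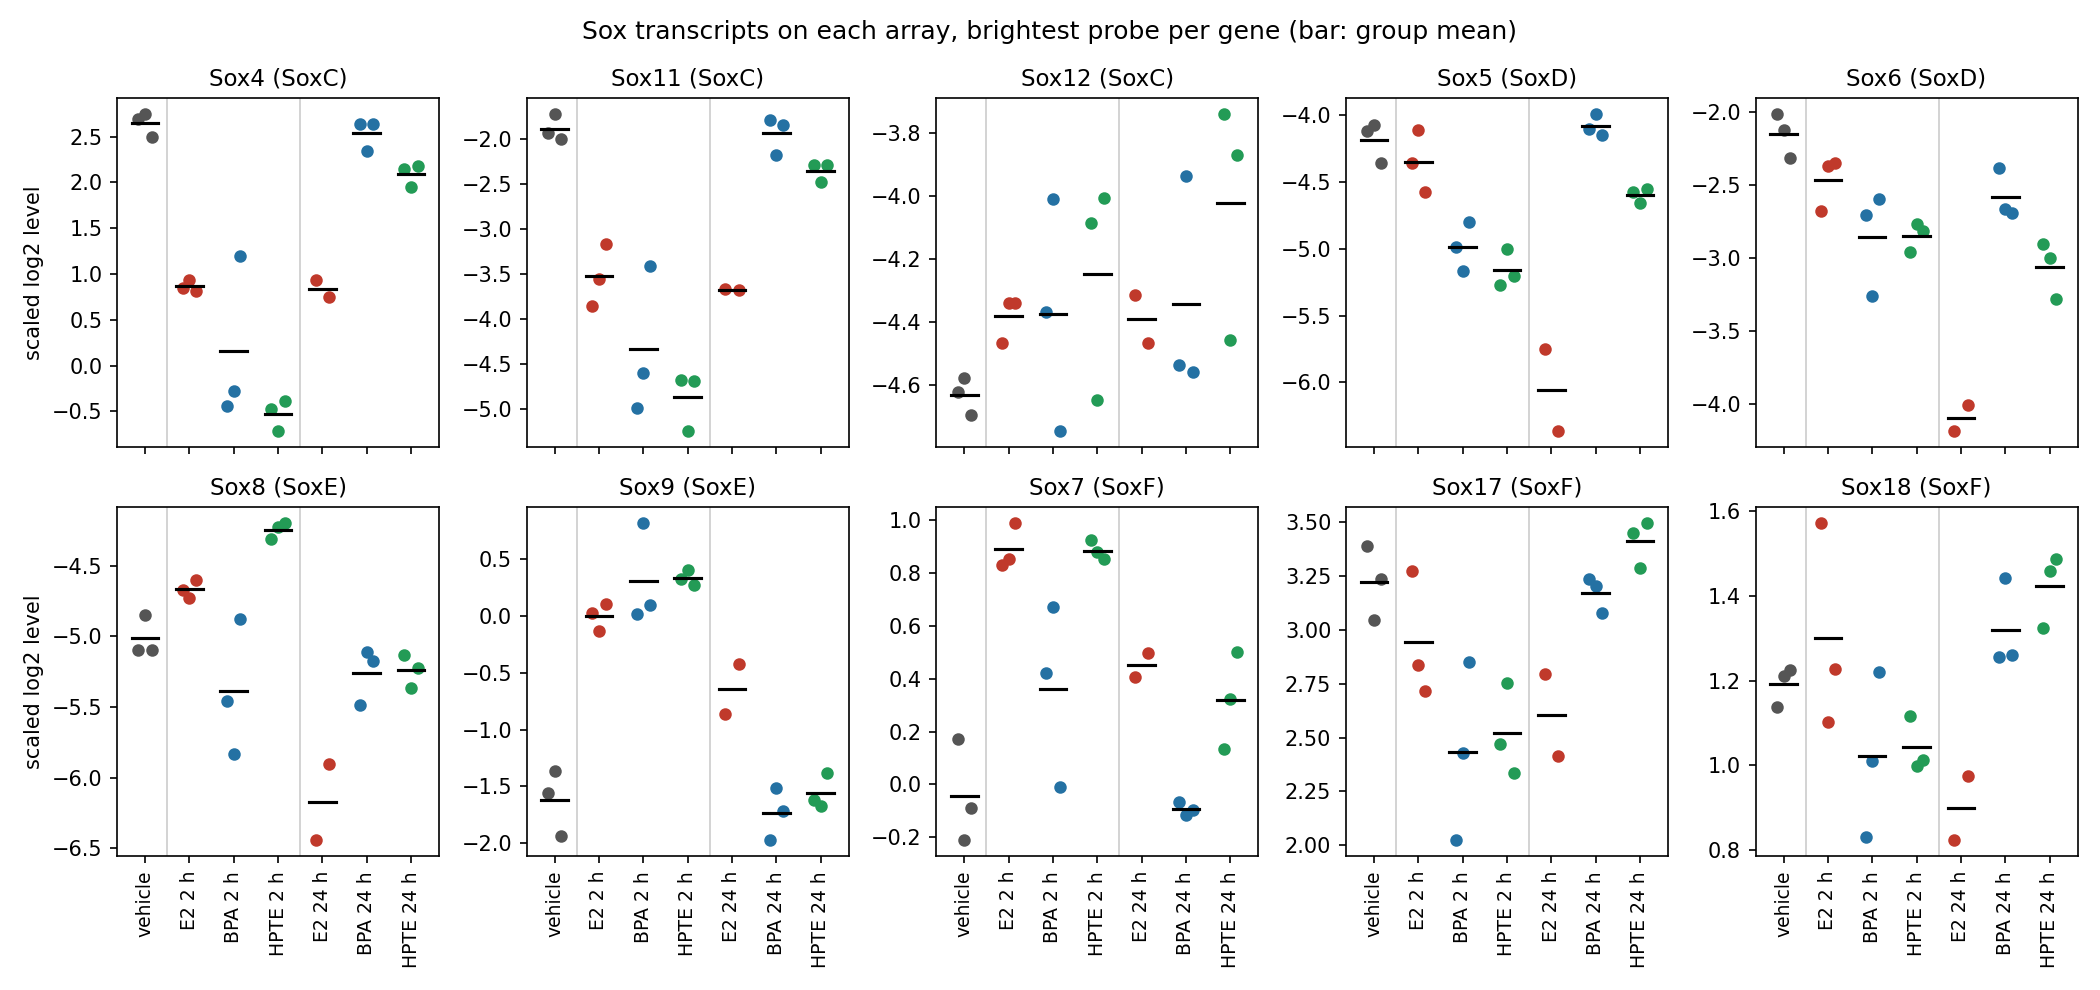
Scaled log2 level (y axis, log2 intensity minus the array's 75th percentile) of the brightest probe of each of the 10 Sox genes in the 7 groups (x axis), with 1 point per array and a bar at the group mean. Panels have their own y ranges. Sox4 and Sox11 were low in all 3 groups at 2 h and in E2 at 24 h, and Sox9 was high in these 4 groups.

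At 2 h, E2 changed 4 of the 10 genes relative to vehicle: Sox7 and Sox9 were higher and Sox4 and Sox11 lower. Over all probes tested, 11.1% were higher and 17% lower in that comparison. BPA at 2 h changed 7, with Sox7 and Sox9 higher and Sox4, Sox5, Sox6, Sox11 and Sox17 lower (19.3% of all probes higher, 30.2% lower). HPTE at 2 h changed 8, with Sox8 higher in addition to the genes named for BPA (19.9% of all probes higher, 28.2% lower). At 24 h, E2 changed 8, with Sox7 and Sox9 higher and Sox4, Sox5, Sox6, Sox8, Sox11 and Sox17 lower (26.3% of all probes higher, 37.6% lower). BPA at 24 h changed 0 of the 10 by limma, with 1 gene (Sox6) under an unadjusted p of 0.05, where 5.09% of all probes were called higher and 8.03% lower. HPTE at 24 h changed 3, with Sox12 higher and Sox5 and Sox6 lower (14.9% of all probes higher, 19.1% lower).

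The median difference of the 10 genes from vehicle was -0.03 for E2, -0.54 for BPA and -0.42 for HPTE at 2 h. The same median over all tested probes was -0.06, -0.10 and -0.09. At 24 h the median of the 10 genes was -0.89 for E2, -0.05 for BPA and -0.08 for HPTE, against -0.15, -0.03 and -0.06 over all tested probes. All arrays are of whole uterus, where fewer cells of a type and less RNA per cell cannot be told apart.

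**Figure D2:**
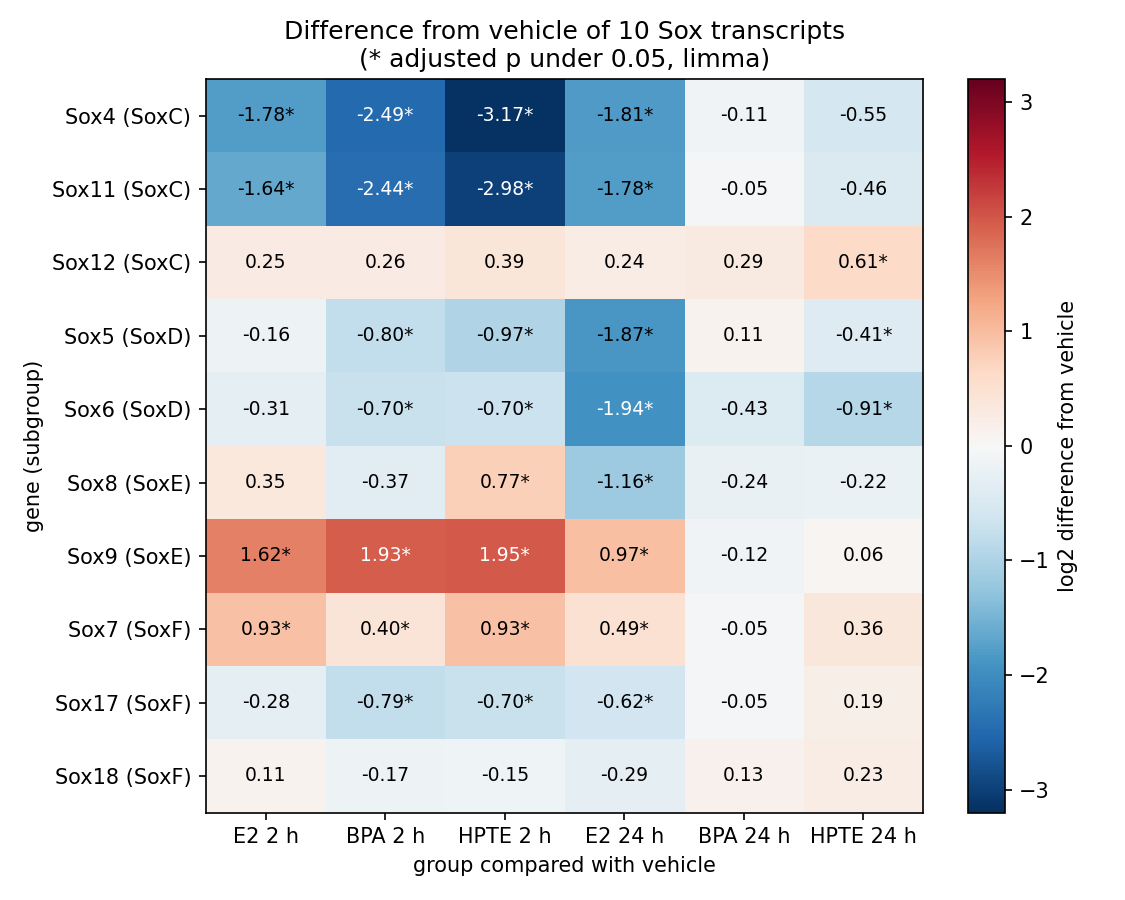
Log2 difference from the vehicle mean (colour and printed value) of each Sox gene (rows, by subgroup) in the 6 treated groups (columns); an asterisk marks an adjusted p below 0.05 (limma). The column of BPA at 24 h holds no asterisk, and the deepest values are those of Sox4 in HPTE at 2 h (-3.17) and Sox11 in the same group (-2.98).

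Sox4, a SoxC factor of progenitor and epithelial cells, is read by 1 probe, which fell in all 3 groups at 2 h and in E2 at 24 h. Its level on vehicle arrays was 2.69, 2.75 and 2.50. It was 0.84, 0.94 and 0.82 at 2 h of E2, -0.44, -0.27 and 1.19 at 2 h of BPA, and -0.47, -0.72 and -0.39 at 2 h of HPTE. No array of a 2 h group reached the lowest vehicle array. At 24 h the level was 0.93 and 0.75 with E2, 2.64, 2.35 and 2.63 with BPA and 2.15, 1.95 and 2.18 with HPTE. The E2 24 h arrays thus stayed with the 2 h arrays, the BPA 24 h arrays overlapped vehicle, and the HPTE 24 h arrays lay just below vehicle.

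Sox4 fell by 1.78 with E2 at 2 h (SE 0.29, adjusted p = 3.01e-04), by 2.49 with BPA (adjusted p = 7.58e-06) and by 3.17 with HPTE (adjusted p = 7.07e-07), the last to a fold of 0.111 of vehicle. At 24 h it fell by 1.81 with E2 (SE 0.32, adjusted p = 1.67e-04), to a fold of 0.286. The difference was -0.11 (95% interval -0.72 to 0.51) for BPA and -0.55 (-1.17 to 0.06) for HPTE at 24 h, and neither passed the test. The fall with HPTE at 24 h was called with both arrays that stood apart left out (-0.53, adjusted p = 0.00899) and with the 2 groups fitted alone (0.0174). Without BPA 2 h replicate 3 the fall of Sox4 with BPA was 3.00. On the slides that held arrays of both groups, the difference of HPTE at 2 h from vehicle was -3.40 and -3.13, and that of BPA -1.50 and -3.19.

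In order from high to low, the group means of Sox4 were 2.65 ± 0.13 (SD, n = 3) in vehicle, 2.54 ± 0.17 in BPA 24 h, 2.09 ± 0.13 in HPTE 24 h, 0.87 ± 0.06 in E2 2 h, 0.84 ± 0.13 (n = 2) in E2 24 h, 0.16 ± 0.90 in BPA 2 h and -0.52 ± 0.17 in HPTE 2 h. Of the neighbours in this order, vehicle and BPA 24 h, BPA 24 h and HPTE 24 h, both E2 groups, and BPA 2 h and HPTE 2 h did not pass the test, and HPTE 24 h against E2 2 h and E2 24 h against BPA 2 h were not tested. The wide spread of BPA at 2 h came from its replicate 3.

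Sox11, a close relative of Sox4 that acts in neural and mesenchymal progenitors, followed the same course on its brightest probe. Its level was -1.94, -1.72 and -2.01 on vehicle arrays, -3.86, -3.56 and -3.16 with E2 at 2 h, -4.99, -4.60 and -3.41 with BPA at 2 h and -4.67, -5.24 and -4.68 with HPTE at 2 h. The 9 arrays at 2 h lay below all vehicle arrays. At 24 h it was -3.66 and -3.68 with E2, -1.79, -2.18 and -1.84 with BPA and -2.29, -2.48 and -2.29 with HPTE. This probe fell by 1.64 (E2), 2.44 (BPA) and 2.98 (HPTE) at 2 h and by 1.78 with E2 at 24 h, with adjusted p from 1.73e-06 to 8.09e-04.

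The brightest Sox11 probe and the Sox4 probe had a Pearson r of 0.992 over the 20 arrays. The points share the arrays and their scaling, and whether this Sox11 probe also binds Sox4 RNA was not tested. Sox11 has 5 other probes, which were well above background on 2 to 7 of the 20 arrays. Their level on vehicle replicate 1 was -4.87 to -2.73, and on the other 19 arrays -9.70 to -5.85. Of A_52_P160955, whose first bases are shown above, the values were -2.73, -5.85 and -6.87 on vehicle arrays, -6.56, -6.53 and -7.01 with BPA at 2 h, -6.80, -6.72 and -6.49 with HPTE at 2 h, and from -9.27 to -7.95 on the BPA and HPTE arrays at 24 h. It was well above background on BPA 2 h replicates 1 and 2 and on all 3 HPTE 2 h arrays, but on 0 of the 6 BPA and HPTE arrays at 24 h, so its values there are not levels and no fold is given. The call of a fall in Sox11 at 2 h of BPA and HPTE rests on 1 of its 6 probes. Of the other 5, 3 were tested, and their differences at those 2 points were -1.55 to 0.20 with 0 called.

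**Figure D3:**
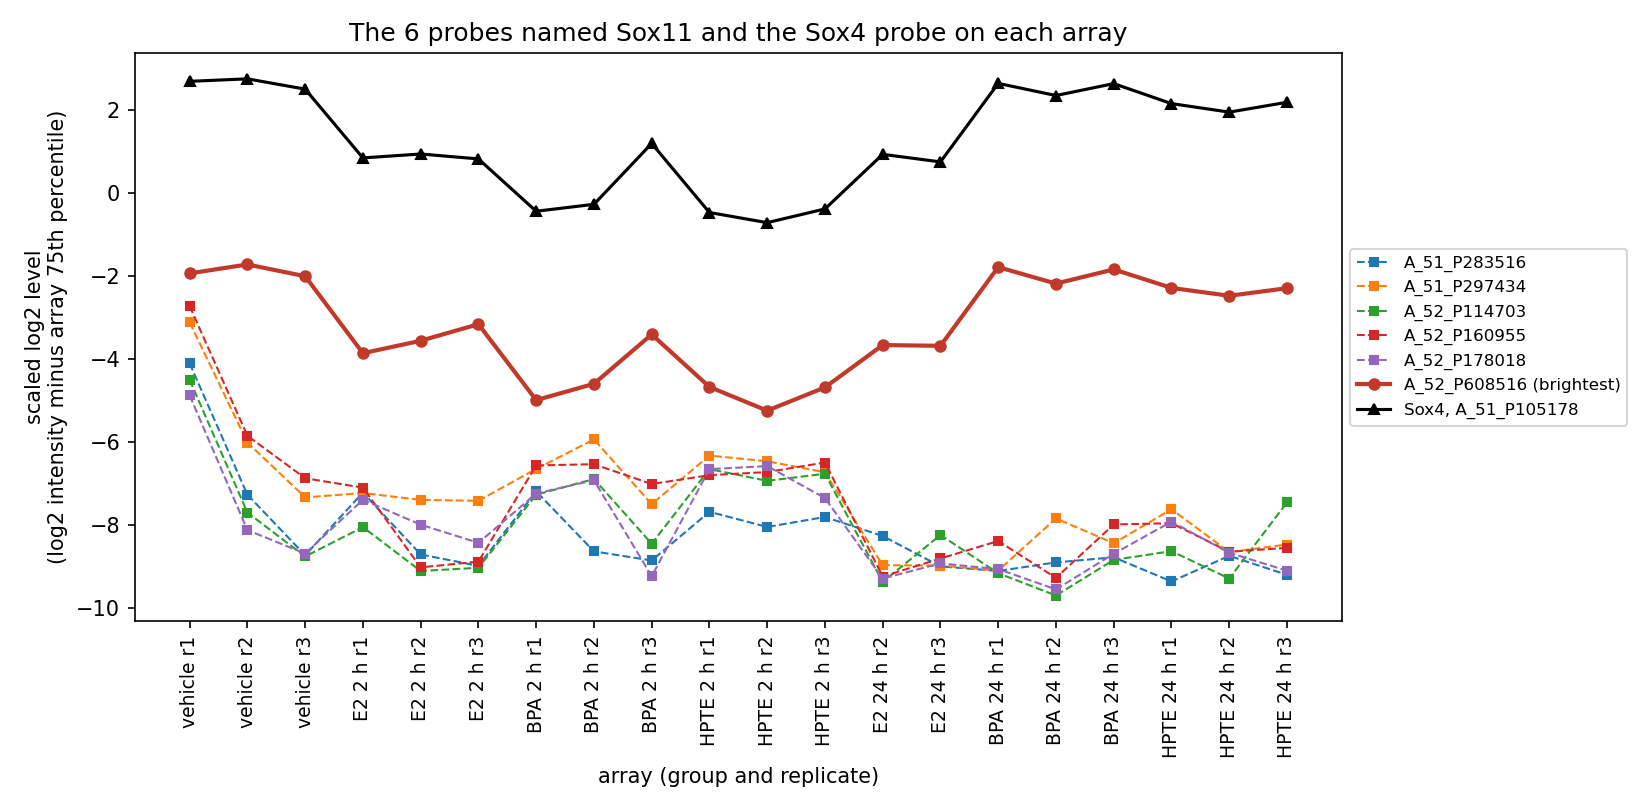
Scaled log2 level (y axis) of the 6 probes named Sox11 and of the Sox4 probe (black triangles) on each of the 20 arrays (x axis). The brightest Sox11 probe (thick red line) runs parallel to Sox4, and the other 5 (dashed) are highest on vehicle replicate 1, at -4.87 to -2.73.

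Sox12, the third SoxC gene, gave a dim signal, with an intensity of 62.9 to 121 on all arrays. Its level was -4.62, -4.58 and -4.70 on vehicle arrays and -3.74, -4.46 and -3.87 with HPTE at 24 h, the one group in which it was called (higher by 0.61, SE 0.23, adjusted p = 0.0482). That call was lost without any 1 of the 3 vehicle arrays (adjusted p from 0.085 to 0.105) and without HPTE 24 h replicate 1 (0.181) or 3 (0.136). In the other 5 groups the difference from vehicle was 0.24 to 0.39 and did not pass the test.

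Sox5 and Sox6, the SoxD factors, lack an activation domain of their own and work with partner proteins. Both were lowest in E2 at 24 h. Sox5 was at -4.12, -4.08 and -4.36 on vehicle arrays and at -5.75 and -6.37 with E2 at 24 h, where the intensity was as low as 18.1. It fell by 1.87 (SE 0.17, adjusted p = 2.22e-07), to a fold of 0.273. Over 18 other settings this difference of Sox5 kept its call, but its size ran from -2.18 to -0.48. Sox6 was at -2.02, -2.13 and -2.32 on vehicle arrays and at -4.18 and -4.00 with E2 at 24 h. It fell by 1.94 (SE 0.18, adjusted p = 2.82e-07), to a fold of 0.261. For both genes the E2 24 h arrays lay below all 18 other arrays.

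At 2 h Sox5 was -4.98, -5.17 and -4.80 with BPA and -5.27, -5.00 and -5.20 with HPTE, below all vehicle arrays, and -4.36, -4.11 and -4.57 with E2, where the groups overlapped. It fell by 0.80 with BPA (adjusted p = 5.31e-04) and by 0.97 with HPTE (adjusted p = 8.80e-05), and its difference with E2 was -0.16 (95% interval -0.49 to 0.16). Sox6 fell by 0.70 with BPA (adjusted p = 0.00218) and by 0.70 with HPTE (adjusted p = 0.00227) at 2 h. For E2 at 2 h the difference of Sox6 was -0.31 (-0.66 to 0.03). At 24 h of HPTE, Sox6 fell by 0.91 (adjusted p = 6.67e-04), on arrays at -2.90, -3.00 and -3.28. Sox5 in the same group fell by 0.41 with an adjusted p of 0.0492, a call that was lost in 13 of 19 other settings.

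Sox5 and Sox6 are also transcribed in male germ cells. Of 10 sperm cell markers 9 were tested, of which 8 to 9 were lower than vehicle in each of the 6 treated groups. Over all probes, 8.03% (BPA at 24 h) to 37.6% (E2 at 24 h) were lower. On vehicle replicate 1 the brightest Sox6 probe had its highest vehicle value, and that of Sox5 did not (-4.12, against -4.08 on replicate 2). Without that array the difference of E2 at 24 h was -1.84 for Sox5 and -1.87 for Sox6. The summed level of sperm cell markers was 4.96 to 6.68 over the vehicle arrays and -1.45 to -0.34 with E2 at 24 h. Leaving out 1 vehicle array therefore cannot test the part of sperm cell RNA. Among the other probes, A_51_P500318 of Sox5 was at -4.51 on vehicle replicate 1 and at -5.78 or lower on the other 19 arrays except vehicle replicate 3 (-5.71). A_52_P394652 of Sox6 was at -4.32, -5.28 and -5.51 on the vehicle arrays and at -6.15 or lower elsewhere. The part of sperm cell RNA in these values was not tested.

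Sox8, a SoxE factor of neural crest and gonad, was highest in HPTE at 2 h and lowest in E2 at 24 h. Its level was -5.10, -4.85 and -5.10 on vehicle arrays, -4.67, -4.73 and -4.60 with E2 at 2 h, -5.45, -5.83 and -4.88 with BPA at 2 h and -4.31, -4.23 and -4.20 with HPTE at 2 h. The HPTE 2 h arrays lay above those of the other 6 groups. Sox8 was higher by 0.77 with HPTE at 2 h (SE 0.19, adjusted p = 0.00365), and its difference was 0.35 with E2 (adjusted p = 0.201) and -0.37 with BPA (adjusted p = 0.12). Without BPA 2 h replicate 3 Sox8 fell by 0.63 with BPA (adjusted p = 0.00454). With E2 at 24 h it was at -6.45 and -5.90, a fall of 1.16 (adjusted p = 2.18e-04) that was not called after normexp background correction (-0.14, adjusted p = 0.214). Its second probe, A_52_P269672, was higher by 1.22 with HPTE at 2 h and lower by 1.64 with E2 at 24 h, both called.

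Sox9, a SoxE factor of cartilage and of gland and crypt epithelium, was the gene with the strongest rise. Its level was -1.56, -1.36 and -1.94 on vehicle arrays, 0.03, -0.13 and 0.10 with E2 at 2 h, 0.01, 0.81 and 0.09 with BPA at 2 h and 0.33, 0.40 and 0.27 with HPTE at 2 h. All 9 arrays at 2 h lay above all arrays of vehicle and of 24 h. It rose by 1.62 with E2 (SE 0.20, adjusted p = 2.66e-05), by 1.93 with BPA (adjusted p = 2.85e-06) and by 1.95 with HPTE (adjusted p = 2.00e-06), or 3.07-fold, 3.80-fold and 3.87-fold. At 24 h it was -0.87 and -0.43 with E2, still above vehicle by 0.97 (SE 0.22, adjusted p = 0.00138).

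With BPA at 24 h Sox9 was at -1.97, -1.51 and -1.72 and with HPTE at -1.62, -1.68 and -1.38, within or next to the vehicle range. The differences from vehicle were -0.12 (95% interval -0.54 to 0.31) and 0.06 (-0.36 to 0.49). A second probe, A_52_P214630, was higher by 1.60, 1.86 and 1.92 at 2 h of E2, BPA and HPTE and by 1.02 at 24 h of E2, all called. The third, A_51_P451606, whose position spans 853 bases for a 60-base probe, was dimmer and was called for BPA (1.08) and HPTE (1.25) at 2 h but not for E2 (0.79, adjusted p = 0.166). Genes that Sox9 activates with Sox5 and Sox6 in cartilage were tested in 3 of 6 cases, with 5 on the array. Col2a1, the main collagen of cartilage, was higher by 1.66 with E2 and 1.22 with HPTE at 24 h and lower by 0.88 with HPTE at 2 h. Col11a2, another cartilage collagen, was lower by 1.07 with E2 at 24 h, and the median of the 3 tested genes there was -0.03.

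Among the SoxF genes, which act together in vessels, Sox7 was higher and Sox17 lower, and Sox18 passed the test against vehicle in 0 of 6 comparisons by limma (1 of 6, E2 at 24 h, under an unadjusted p of 0.05). Sox7 was at 0.17, -0.21 and -0.09 on vehicle arrays, 0.83, 0.85 and 0.99 with E2 at 2 h, 0.42, 0.67 and -0.01 with BPA at 2 h and 0.93, 0.88 and 0.85 with HPTE at 2 h. The E2 and HPTE arrays at 2 h lay above all vehicle arrays, and BPA replicate 3 lay among them. Sox7 rose by 0.93 with E2 (SE 0.14, adjusted p = 1.69e-04) and by 0.93 with HPTE (adjusted p = 7.01e-05), and by 0.40 with BPA (adjusted p = 0.0279). The last call was lost in 8 of 19 other settings, and without BPA 2 h replicate 3 the rise of Sox7 was 0.59.

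At 24 h Sox7 was 0.40 and 0.50 with E2, higher by 0.49 (adjusted p = 0.0129), a call lost in 4 of 18 other settings, among them without vehicle replicate 2 (0.0519) and without E2 24 h replicate 3 (0.0813). Its second probe, A_52_P644005, was higher by 0.85 with E2 and by 0.49 with HPTE at 2 h, both called. For BPA at 2 h (-0.06) and E2 at 24 h (-0.27) that probe was not called and had the opposite sign. With HPTE at 24 h the brightest Sox7 probe was not called against vehicle, but it was called higher in 5 of 19 other settings. Among these were the fits without vehicle replicate 1 (0.47, adjusted p = 0.0354) and without both arrays that stood apart (0.47, adjusted p = 0.00536).

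Sox17, the SoxF gene known from uterine epithelium as well as vessels, was at 3.39, 3.05 and 3.23 on vehicle arrays. At 2 h it was 3.28, 2.84 and 2.72 with E2, 2.02, 2.43 and 2.85 with BPA and 2.47, 2.75 and 2.34 with HPTE. The BPA and HPTE arrays lay below all vehicle arrays, and the E2 arrays overlapped them. It fell by 0.79 with BPA (SE 0.19, adjusted p = 0.00314) and by 0.70 with HPTE (adjusted p = 0.00672), and its difference with E2 was -0.28 (95% interval -0.69 to 0.13). At 24 h it was 2.80 and 2.42 with E2, a fall of 0.62 (adjusted p = 0.0199) that was lost without vehicle replicate 1 (adjusted p = 0.0654) or E2 24 h replicate 3 (0.196). With BPA it was 3.24, 3.21 and 3.08 and with HPTE 3.45, 3.29 and 3.50 at 24 h, overlapping vehicle.

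Sox17 has 3 further probes, and 2 of them (A_51_P273667 and A_52_P365096) gave the same calls as the brightest probe in all 6 comparisons with vehicle. The third, A_52_P1180325, fell further: by 1.48 with E2 (adjusted p = 3.48e-04), 2.54 with BPA and 2.53 with HPTE at 2 h, and by 0.96 with E2 at 24 h. Its values were -3.10, -3.07 and -3.42 on vehicle arrays, -4.35, -4.72 and -4.96 with E2 at 2 h, -6.00, -6.00 and -5.19 with BPA at 2 h and -5.63, -5.89 and -5.66 with HPTE at 2 h. No array at 2 h reached the vehicle range. In the file its position runs in the opposite direction to those of the other 3 probes, and which RNA it reads was not tested.

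**Figure D4:**
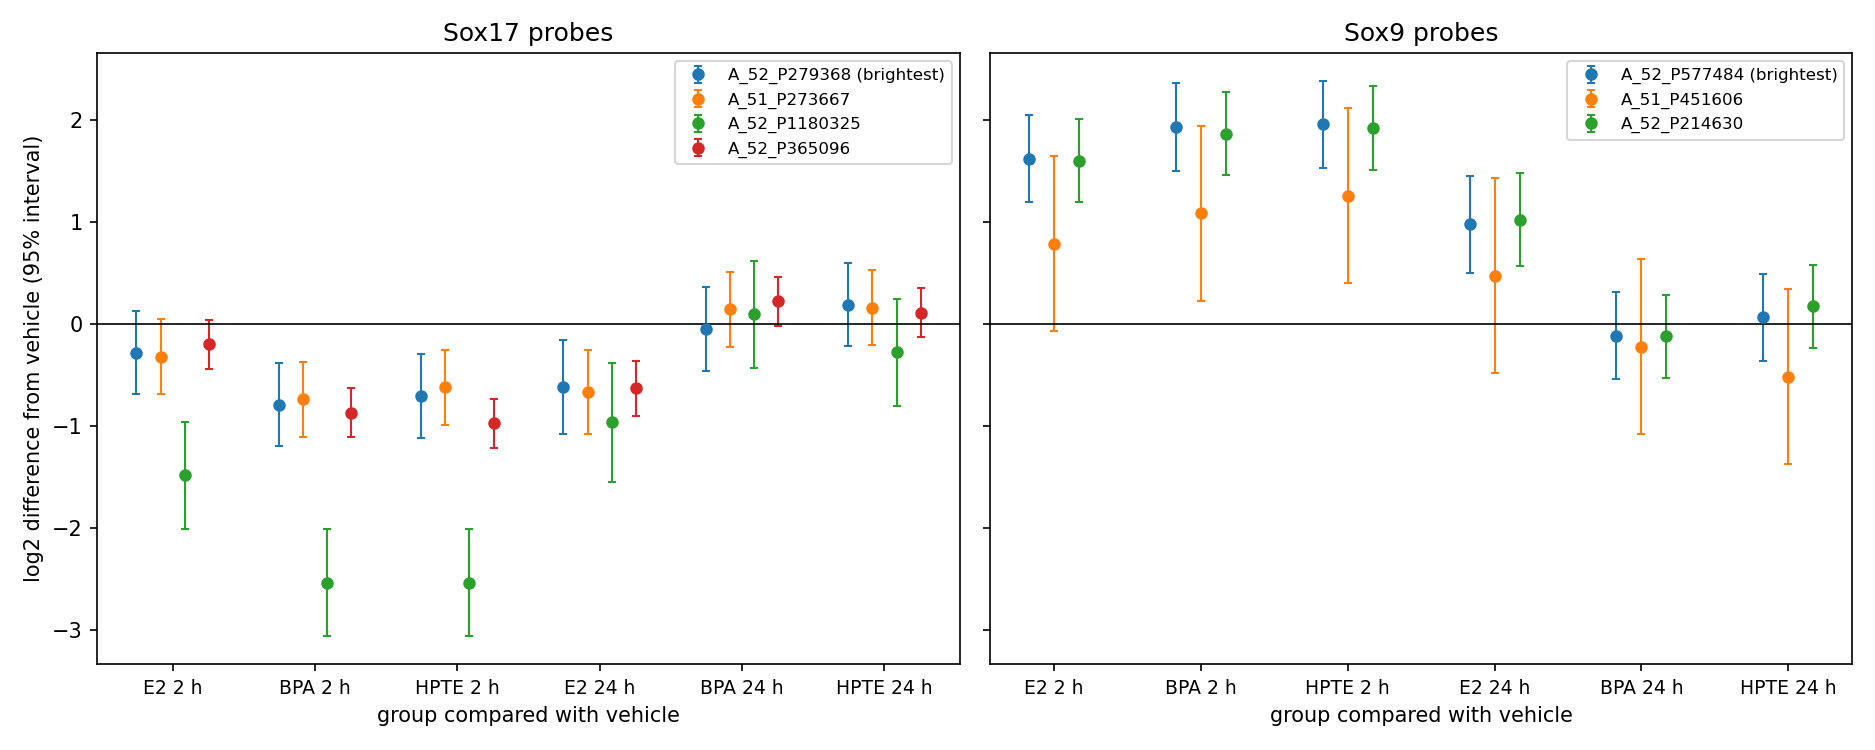
Log2 difference from vehicle (y axis) in the 6 treated groups (x axis) for each probe of Sox17 (left) and Sox9 (right), with 95% intervals from limma. The 3 Sox17 probes written in 1 direction lie together, A_52_P1180325 falls by up to 2.54, and the Sox9 probes rise at 2 h.

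Sox18, which directs vessel and lymphatic development, was at 1.14, 1.21 and 1.23 on vehicle arrays and at 0.82 and 0.97 with E2 at 24 h, a difference of -0.29 (95% interval -0.57 to -0.02, adjusted p = 0.0609). Its differences in the other 5 groups were -0.17 to 0.23. Of 11 tested markers of endothelium, E2 at 24 h lowered 7 and BPA at 2 h 6, with 0 higher, where 37.6% and 30.2% of all probes were lower. HPTE at 2 h lowered 3 of 11, near the 28.2% of all probes. BPA at 24 h raised 3 (5.09% of all probes) and HPTE at 24 h raised 4 and lowered 2 (14.9% and 19.1%). E2 at 2 h raised 1 and lowered 1 (11.1% and 17% of all probes). The summed level of these markers was 5.34 to 5.42 with E2 at 24 h, against 5.90 to 5.99 on vehicle arrays, 5.51 to 5.72 with BPA at 2 h and 5.65 to 5.78 with HPTE at 2 h. Markers of lymphatic endothelium were lower in 3 of 3 tested with E2 at 24 h (37.6% of all probes). They were lower in 1 of 3 with BPA at 2 h (30.2%) and 1 of 3 with HPTE at 24 h (19.1%). At 24 h, markers of epithelium were higher in 5 of 6 with E2, 3 of 6 with BPA and 6 of 6 with HPTE. The shares of all probes higher were 26.3%, 5.09% and 14.9%. The summed level of the epithelial markers at 24 h was 7.67 to 7.86 (E2), 6.83 to 6.94 (BPA) and 7.13 to 7.27 (HPTE). On vehicle arrays these markers summed to 6.36 to 6.58. Their summed level was 5.68 to 6.27 with BPA at 2 h, with 2 of 6 lower and 1 higher (30.2% and 19.3% of all probes). With HPTE at 2 h it was 6.22 to 6.36, with 0 of 6 lower and 1 higher (28.2% and 19.9% of all probes). Sox17 was lower in both of these 2 h groups. Stromal markers were lower in 3 of 6 with BPA and 4 of 6 with HPTE at 2 h (medians -0.56 and -0.67), where 30.2% and 28.2% of all probes were lower. At 24 h they were higher in 3 of 6 with E2, 1 with BPA and 3 with HPTE, and lower in 2 with E2 (37.6% of all probes). Smooth muscle markers were higher in 5 of 6 with E2, 2 with BPA and 6 with HPTE at 24 h. Of all probes, 26.3%, 5.09% and 14.9% were higher in these 24 h groups. Leukocyte markers were at 2.38 to 4.02 with BPA at 2 h, against 2.13 to 2.40 on vehicle arrays. Of these, 1 of 6 was called higher, near the 19.3% of all probes. The part of these shifts in the values of the Sox genes was not tested.

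Set against E2 at 2 h, BPA gave lower levels of 3 of the 10 genes (Sox5, Sox7 and Sox8) and higher levels of 0 (7.92% of all probes higher, 11.1% lower). Sox7 was lower by 0.53 (adjusted p = 0.0181), Sox5 by 0.64 (adjusted p = 0.0103) and Sox8 by 0.72 (adjusted p = 0.0176). The call of Sox8 was lost in 8 of 19 other settings, among them without BPA 2 h replicate 1 (0.0622) or 2 (0.0825), and that of Sox7 in 5. Without BPA 2 h replicate 3 the number of genes was 8, Sox4 among them (difference -1.22, against -0.71 with it). HPTE at 2 h gave lower levels than E2 of Sox4 (-1.39, adjusted p = 0.00465), Sox5 (-0.81, adjusted p = 0.00255) and Sox11 (-1.34, adjusted p = 0.00737), and higher levels of 0, where 8.45% of all probes were higher and 8.18% lower. With spike-in scaling these 3 calls of HPTE were lost (adjusted p = 0.128, 0.325 and 0.208). Sox5 also lost its call with no scaling (0.0992) and Sox11 with the slide as a block (0.0511). With the mean of its tested probes Sox11 turned to 0.78 (adjusted p = 0.362). Doses of E2 and of the other compounds differed in mass, so the values of this comparison with E2 stand side by side at different doses.

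At 24 h the direct comparison with E2 covered most of the genes. BPA was higher than E2 for 7 (Sox4, Sox5, Sox6, Sox8, Sox11, Sox17 and Sox18) and lower for 2 (Sox7 and Sox9), where 33.2% of all probes were higher and 24.6% lower and the median difference of all probes was 0.13. HPTE was higher than E2 for the same 7 genes and lower for Sox9 (27.3% and 21.6% of all probes). The largest differences of BPA from E2 were 1.98 for Sox5, 1.74 for Sox11, 1.70 for Sox4 and 1.51 for Sox6. Those of HPTE were 1.46, 1.32, 1.26 and 1.03 for the same genes. Over 17 other settings the Sox5 difference ran from 0.58 to 2.29 with BPA and from 0.39 to 1.77 with HPTE. That of Sox11 with BPA ran from 0.57 to 1.86, so the order of these genes depends on the setting. Sox9 was 1.09 lower with BPA (adjusted p = 6.91e-04) and 0.91 lower with HPTE (adjusted p = 0.00335). Both comparisons share the 2 E2 arrays. Against BPA, Sox17 lost its call in 6 of 17 other settings, among them the replicate block (0.0575), without E2 24 h replicate 3 (0.27) and without BPA 24 h replicate 1 or 2 (0.0765 and 0.0708), and Sox7, Sox8 and Sox18 lost theirs in 3 each. Against HPTE, Sox9 (0.0668) and Sox17 (0.0895) lost theirs without E2 24 h replicate 3.

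BPA and HPTE hold a pair of phenol rings on a bridging carbon, which carries methyl groups in BPA and a trichloromethyl group and a hydrogen in HPTE. They were given at the same mass, and the 10 genes were compared at each time. At 2 h Sox8 was 1.14 higher with HPTE than with BPA (95% interval 0.73 to 1.55, adjusted p = 0.0237), and 0 genes were lower (0.24% of all probes higher, 0.197% lower). The arrays did not overlap for Sox8, the HPTE arrays being at -4.31 or above and the BPA arrays at -4.88 or below. On the 3 slides that held both, the difference of Sox8 was 0.65 to 1.52. The call was lost with the slide as a block (adjusted p = 0.0641), with spike-in scaling (0.366), with the 2 groups fitted alone (0.456), without BPA 2 h replicate 1 (0.0735) and without HPTE 2 h replicate 1 or 2 (0.0813 and 0.127).

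The other 9 genes did not pass the test between HPTE and BPA at 2 h. For Sox4 the difference was -0.68 (95% interval -1.30 to -0.07, adjusted p = 0.257), and -0.17 without BPA 2 h replicate 3 (adjusted p = 0.524). The difference for Sox7 was 0.53 (0.22 to 0.83, adjusted p = 0.107), and that for Sox9 was 0.03 (-0.40 to 0.45). At 24 h 0 of 10 passed by limma, with 3 (Sox5, Sox6 and Sox7) under an unadjusted p of 0.05, where 2.99% of all probes were higher and 1.09% lower. The differences at 24 h ran from -0.52 (Sox5) to 0.41 (Sox7), and their intervals lay between -1.06 and 0.80. Missing the threshold does not show that BPA and HPTE act alike on these genes.

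**Figure D5:**
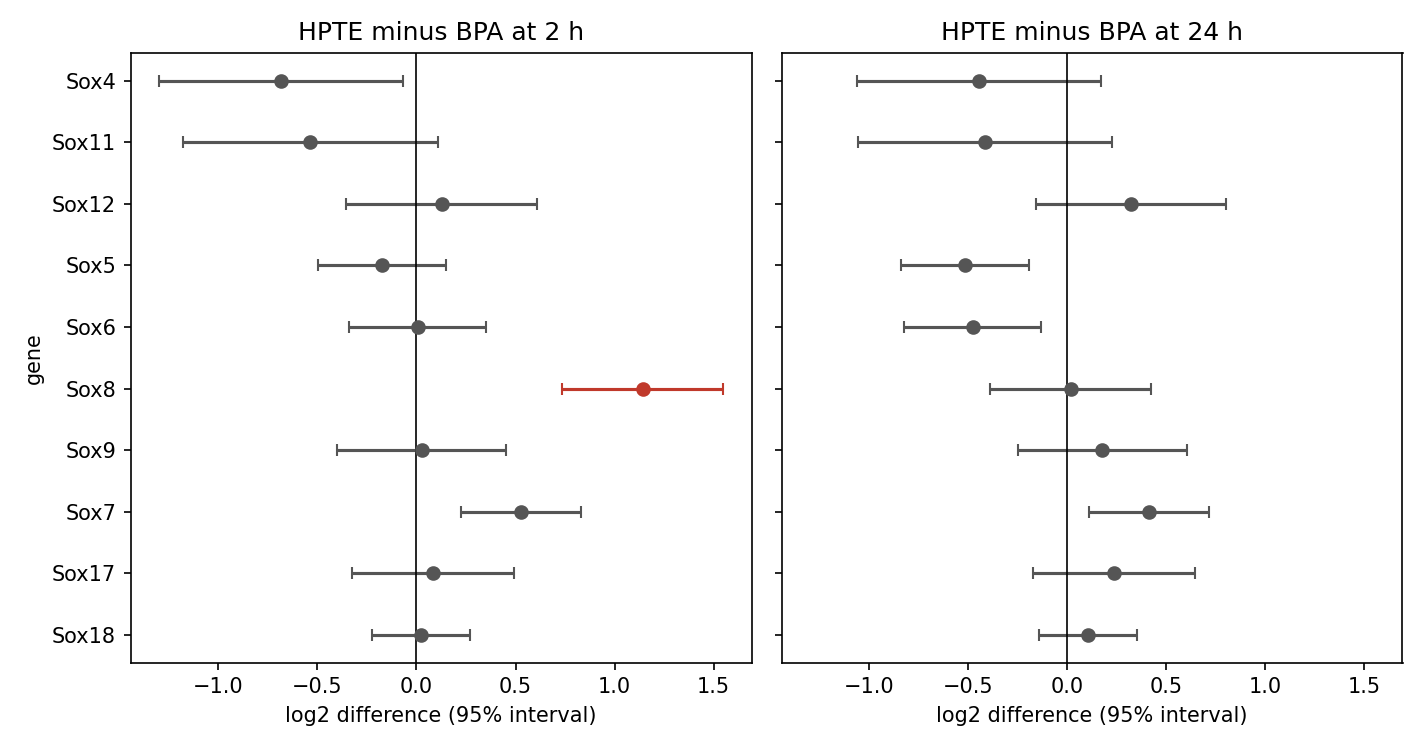
Log2 difference HPTE minus BPA (x axis, 95% interval from limma) for each Sox gene (y axis) at 2 h (left) and 24 h (right); red marks an adjusted p below 0.05. Sox8 at 2 h (1.14) is the one red point.

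Comparing 24 h with 2 h within a compound leaves out the vehicle arrays. With E2, 6 genes were lower at 24 h (Sox5, Sox6, Sox7, Sox8, Sox9 and Sox18) and 0 higher (25.9% of all probes higher, 30.1% lower). Sox4 differed by -0.03 (95% interval -0.72 to 0.66) between the E2 times. With BPA 5 genes were higher at 24 h (Sox4, Sox5, Sox11, Sox17 and Sox18) and 2 lower (Sox7 and Sox9), where 28.2% of all probes were higher and 20.2% lower. With HPTE the same 5 genes were higher and Sox7, Sox8 and Sox9 lower (29.5% of all probes higher, 24.6% lower). The Sox18 call with BPA was lost in 11 of 19 other settings, among them without any 1 BPA array except 2 h replicate 3. The Sox11 difference with BPA turned to -0.73 with the mean of its 4 tested probes. With E2, Sox7, Sox9 and Sox18 each lost the call in 6 of 17 settings. Sox4 rose by 2.38 with BPA and by 2.62 with HPTE from 2 h to 24 h, or 5.21-fold and 6.14-fold. Sox9 fell by 2.04 and 1.89 in the same comparisons and by 0.64 with E2.

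Of the 10 other Sox genes listed, 6 were tested. Sox13, a SoxD gene, fell by 0.62 with BPA and 0.73 with HPTE at 2 h, and Sox10, a SoxE gene of Schwann cells, fell by 0.91 with E2 at 24 h. Sox21 was higher by 0.61 with E2 and 0.51 with BPA at 2 h and by 0.57 with HPTE at 24 h. Sox2 and Sox30 were not tested. Sox30, a germ cell factor, was well above background on 2 of the 3 vehicle arrays and on none of the other 17 arrays, and Sox2 on vehicle replicate 1 alone (-5.34).

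The Indian hedgehog axis, which Sox17 is known to feed in the uterus, had all 11 listed genes tested. E2 at 2 h raised 2 and lowered 2, BPA at 2 h raised 2 and lowered 5, HPTE at 2 h raised 2 and lowered 4, and E2 at 24 h raised 2 and lowered 8. Of all probes, E2 at 2 h raised 11.1% and lowered 17%, and BPA at 2 h raised 19.3% and lowered 30.2%. HPTE at 2 h raised 19.9% and lowered 28.2%, and E2 at 24 h raised 26.3% and lowered 37.6%. The shares of this list lay near these for genes lowered by E2 and raised by BPA or HPTE at 2 h. BPA at 24 h changed 0 of 11, where 5.09% of all probes were higher and 8.03% lower. HPTE at 24 h raised 0 and lowered 1, Esr1, where 14.9% of all probes were higher and 19.1% lower. Ihh, the ligand, was higher by 2.44, 1.21 and 1.51 at 2 h of E2, BPA and HPTE and lower by 1.80 with E2 at 24 h. Ptch1, its receptor, was lower by 2.30 with BPA and 2.28 with HPTE at 2 h and by 2.26 with E2 at 24 h. Pgr, the progesterone receptor, was higher by 1.81, 1.60 and 1.40 at 2 h and was also called higher with E2 at 24 h.

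The Tcf/Lef factors and beta-catenin are HMG-box proteins of the Wnt pathway with their partner. Of 4 tested, E2 at 24 h lowered 3 (37.6% of all probes). BPA and HPTE at 2 h lowered 2 and raised 1 each, where 30.2% and 28.2% of all probes were lower and 19.3% and 19.9% higher. BPA and HPTE at 24 h lowered 1 each, Lef1 (8.03% and 19.1% of all probes). Lef1 fell by 1.96 and Tcf7l2 by 1.04 with E2 at 24 h. Tcf7 was higher by 0.45 with BPA and by 0.67 with HPTE at 2 h and lower by 0.54 with E2 at 24 h. Ctnnb1 itself was within 0.22 of vehicle in every group and was not called. Schwann and neural crest markers, the cells where Sox8 and Sox10 are best known, were lower in 5 of 5 with BPA and HPTE at 2 h. They were lower in 3 of 5 with E2 at 2 h and 4 of 5 with E2 at 24 h. The shares of all probes lower were 30.2%, 28.2%, 17% and 37.6%, in that order. BPA at 24 h raised 1 and lowered 0 (5.09% and 8.03% of all probes), and HPTE at 24 h raised 1 and lowered 2 (14.9% and 19.1%). The summed level of these markers was 2.15 to 2.24 with HPTE at 24 h, against 1.65 to 1.69 on vehicle arrays.

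The genes whose levels ran most like a member over the 20 arrays were taken by Pearson r among 12296 genes well above background on all arrays. For Sox4 these were Sox11 (0.992), Kcnj8 (0.978) and Itgb8 (0.978), and for Sox9 Yrdc (0.974), Ier3 (0.973) and Chordc1 (0.973). For Sox17 they were Gpr177 (0.937), D14Ertd500e (0.933) and Mtus1 (0.929), and for Sox7 Hyal2 (0.922), Socs2 (0.922) and Mad2l1bp (0.899). Sox5 was nearest to Slc25a27 (0.965), Sox6 to Gata6 (0.949), Sox8 to Dmwd (0.880), Sox12 to Erbb4 (0.856) and Sox18 to Hod (0.895). The points of each r are the same 20 arrays in 7 groups, which share scaling and treatment.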

How the data were processed

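RNA of each uterus was labelled with Cy3 and hybridized alone to an Agilent mouse array. Per the labels, the authors extracted the scans with Agilent Feature Extraction 9.5. The deposited scanner files hold intensity per spot, background-subtracted, and (units of kind other, per the file headers) flags on each spot. Intensity values in the authors' series matrix equalled them on 20 arrays (tolerance 1e-06).

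Control and outlying spots were left out, spots of a probe were averaged, and log2 intensity was centred on each array's 75th percentile (intensity 1320 to 2046). The share of probes well above background was 72.7% to 81.3% per array, and the number of arrays limits the precision. A probe was tested when well above background on every array of 1 group. The 7 group means were estimated together in limma 3.58.1 (R 4.3.3) with two-sided tests, and the scripts were tested on simulated data. Nothing in the labels says how uteri were assigned to days, so p-values measure the spread between arrays. There were 6 slides and 2 scan days. Named genes were the 10 members, listed genes, and the 3 genes of highest r. The members and lists were chosen with earlier results of these data known. Alternatives were other background corrections and scalings, no filter, blocks, all tested probes of a gene, fewer groups, and leaving out arrays. Of these, 1, leaving out 2 arrays together, was chosen after seeing the data. Same-numbered arrays did not deviate together (r over 0.1 in 12 of 57 pairs).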

Additional observations from a re-analysis of the deposited data

Results flagged for a closer look

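The effect of a compound on a Sox gene was set beside its effect at the other time by the direct contrast of 24 h minus 2 h (limma, adjusted p below 0.05), and 21 of 30 such differences passed. Over all probes, 25.9% were higher and 30.1% lower at 24 h with E2, 28.2% and 20.2% with BPA, and 29.5% and 24.6% with HPTE. With E2 the later level was lower for Sox5 (-1.71), Sox6 (-1.63), Sox8 (-1.51), Sox9 (-0.64), Sox7 (-0.44) and Sox18 (-0.40). With BPA it was higher for Sox11 (2.39), Sox4 (2.38), Sox5 (0.90), Sox17 (0.74) and Sox18 (0.30) and lower for Sox9 (-2.04) and Sox7 (-0.45). The Sox18 call was lost in 11 of 19 other settings, and Sox11 turned to -0.73 with the mean of its tested probes. With HPTE it was higher for Sox4 (2.62), Sox11 (2.51), Sox17 (0.89), Sox5 (0.56) and Sox18 (0.38) and lower for Sox9 (-1.89), Sox8 (-0.99) and Sox7 (-0.57). Here Sox11 turned to -0.65 with the mean of its tested probes and Sox18 to -0.17 with spike-in scaling.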

How the results depend on the processing

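Over all alternatives, 2551 of 2750 differences of single genes kept their side of the threshold, of which 103 that were not called changed sign and 2448 kept it. A further 149 lost the call, 45 gained it, and 5 turned with a call in at least 1 of the settings. The numbers of genes called that moved by over 1.5 times or turned were these. With no scaling, HPTE at 24 h against vehicle had 1 (3 in the analysis above), BPA against E2 at 2 h 0, and E2 at 24 h against 2 h 3. With spike-in scaling, the numbers against vehicle were 3 for BPA at 2 h and 1 for HPTE at 24 h, those against E2 at 2 h were 0 (BPA) and 0 (HPTE), those against E2 at 24 h were 5 and 2, that of HPTE against BPA at 2 h was 0, and those of 24 h against 2 h were 3 (E2), 3 (BPA) and 5 (HPTE, 2 higher and 3 lower). Normexp correction left 3 for HPTE at 24 h with the directions turned (2 higher, 1 lower), and no filter left 1. With the slide as a fixed block, BPA against E2 and HPTE against BPA at 2 h had 1 and 0 and E2 at 24 h against 2 h 3. With the groups compared alone, the first 2 of these had 0. With the mean of all tested probes of a gene, E2 at 2 h had 7 and BPA at 24 h 2. Leaving out both doubted arrays gave 8 for BPA against E2 at 2 h.

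Leaving out 1 array gave 1 to 2 genes for HPTE at 24 h (1 without vehicle replicate 2 or HPTE 24 h replicate 3), 2 to 8 for BPA against E2 at 2 h, 3 to 6 for E2 at 24 h against 2 h (3 without E2 24 h replicate 2), and 0 to 2 for HPTE against BPA at 2 h (0 without BPA 2 h replicate 1 or HPTE 2 h replicate 1 or 2, and 2 without BPA 2 h replicate 2). The other numbers stayed within 1.5 times.

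These 5 were Sox18 in HPTE at 24 h against 2 h with spike-in scaling (-0.17) and, with the mean of all tested probes, Sox11 in HPTE against E2 at 2 h (0.78), in BPA (-0.73) and HPTE (-0.65) at 24 h against 2 h, and Sox8 in BPA at 24 h against 2 h (-0.55). The cause was not tested beyond the values by probe given above.

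The numbering of replicates pairs no samples here (r of deviations from -0.36 to 0.33). With a replicate block the number for HPTE at 24 h was 2, and the other 14 stayed within 1.5 times (against vehicle, E2 had 4 at 2 h and 8 at 24 h, BPA 7 and 0, and HPTE 8 at 2 h). Dim probes limit Sox5, Sox8 and Sox12, and the comparison of 2 h groups with vehicle also holds the time.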
